A study of Mus musculus with 2 samples.

Results

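Chemokines are small secreted proteins that guide cells carrying matching receptors, and 5 genes for such proteins were followed here in mouse CD4 T cells: Ccl1, Ccl3, Ccl4, Ccl5 and Xcl1. The 5 were taken by symbol, each from 1 of the 55487 gene rows of the unfiltered UMI matrices (a UMI, or unique molecular identifier, marks 1 captured RNA molecule). The cells were sorted as TCRb+CD3+CD4+ from wild-type C57BL/6J male mice of 8 weeks, from brown (BAT), subcutaneous (SAT) and visceral (VAT) adipose tissue and from the spleen. There were 2 droplet libraries, called experiment 1 and experiment 2, each of 8 samples carrying a hashtag, 2 per tissue, so that every tissue had 4 hashed samples (numbers 1 and 2 in experiment 1, 3 and 4 in experiment 2). The labels call them biological duplicates and do not say whether each was 1 animal, so p-values measure the spread between these hashed samples. Adipose tissue was digested mechanically and with collagenase II and the spleen mechanically only, so digestion and tissue cannot be told apart in any comparison of fat with spleen.

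Ccl3 (macrophage inflammatory protein 1-alpha), Ccl4 (its beta counterpart) and Ccl5 (RANTES) draw monocytes and effector lymphocytes. Ccl1 binds CCR8, a receptor known from regulatory and type 2 T cells, and Xcl1 (lymphotactin) binds XCR1 on cross-presenting dendritic cells. Activated, cytotoxic and natural killer-type lymphocytes are the usual lymphoid sources of these ligands, and NF-kB and AP-1 factors are known to act on the promoters of several of them after T cell receptor stimulation.

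In the mm10 annotation Ccl1, Ccl3, Ccl4 and Ccl5 lay close together on chromosome 11, with Ccl5 at chr11:83525778-83530518 on the minus strand, Ccl3 at chr11:83647844-83649355 on the minus strand and Ccl4 at chr11:83662584-83664683 on the plus strand. Ccl1 was annotated at chr11:82176657-82305690 and Xcl1 at chr1:164931644-164935527, both on the minus strand. The Xcl1 span overlaps the gene model Gm20743, so reads in the overlap are uncertain between them. Promoter sequence was at hand for Ccl1, Ccl3 and Xcl1. It is shown because these genes were often found at very high counts in few cells. Each line gives the 250 bases upstream of the RefSeq start (build GRCm38.p6, 5′ to 3′ on the gene's own strand) at chr11:82179813-82180062, chr11:83649379-83649628 and chr1:164935523-164935772. The stretch GGAAA, or TTTCC for the other strand, is in capitals. It is shorter than a whole NF-kB site and is not specific to that family of factors.
Ccl1: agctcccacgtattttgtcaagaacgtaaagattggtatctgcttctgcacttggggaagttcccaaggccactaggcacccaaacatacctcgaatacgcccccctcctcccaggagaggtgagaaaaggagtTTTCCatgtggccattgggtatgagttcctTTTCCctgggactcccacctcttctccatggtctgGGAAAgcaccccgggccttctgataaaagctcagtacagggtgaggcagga
Ccl3: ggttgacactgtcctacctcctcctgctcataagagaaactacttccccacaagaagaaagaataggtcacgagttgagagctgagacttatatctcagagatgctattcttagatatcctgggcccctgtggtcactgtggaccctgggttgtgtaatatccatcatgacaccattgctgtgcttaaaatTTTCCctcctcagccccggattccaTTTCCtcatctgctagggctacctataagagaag
Xcl1: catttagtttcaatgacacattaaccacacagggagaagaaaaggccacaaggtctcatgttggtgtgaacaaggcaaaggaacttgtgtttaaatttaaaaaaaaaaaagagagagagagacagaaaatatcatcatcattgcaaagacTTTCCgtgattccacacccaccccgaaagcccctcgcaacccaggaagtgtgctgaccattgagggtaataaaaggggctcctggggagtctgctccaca
The stretch occurred 3 times in the Ccl1 window, 2 times in that of Ccl3 and 1 time in that of Xcl1. Among 32851 promoters of the same length, 55.6% held at least 1 such stretch, 21.4% at least 2 and 6.39% at least 3. The matches are letters only and no binding was measured.

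After filters on quality and removal of B, myeloid, fibroblast and erythroid clusters, 12031 alpha-beta T cells were left (3727 in experiment 1, 8304 in experiment 2), of which 2970 and 5912 carried a single tissue hashtag. Cells per hashed sample ran from 233 to 949 and UMIs per hashed sample from 1439670 to 4839746. Cd3e was found in 81.3%, Trac in 89.3%, Trbc2 in 98.3% and Cd4 in 52.1% of these cells, and Cd8a in 0.515%. SAT sample 1 and BAT sample 4 had weak hashtags. Only 20 barcodes were shared by the libraries. A cluster of 1370 cells with few UMIs (median 1611.5), 1350 of them in experiment 2, was kept.

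The cells were divided into 5 exclusive classes by single receptor or lineage genes. The Foxp3 class (847 cells) had at least 1 UMI of Foxp3, the factor that defines regulatory T cells. The Klrb1c class (280 cells) had none of Foxp3 and at least 1 UMI of Klrb1c, which encodes the natural killer receptor NK1.1. The Cxcr6 class (2335 cells) had neither and at least 1 UMI of Cxcr6, a chemokine receptor of tissue-resident effector T cells. The Cxcr3 class (1425 cells) had none of those and at least 1 UMI of Cxcr3, and the zero class (7144 cells) had all 4 genes at 0. A class made by the presence of 1 UMI misses cells whose transcript was not captured, so the zero class also holds effector and regulatory cells.

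Ccl5 was found in most effector-type cells of both libraries. In the Klrb1c class 92.4% of cells in experiment 1 and 92.0% in experiment 2 held a Ccl5 UMI, and in the Cxcr6 class 83.2% and 79.6% did. The share was 62.1% and 62.7% in the Cxcr3 class, 43.1% and 39.4% in the Foxp3 class, and 20.8% and 19.99% in the zero class. The order of the classes was thus the same in both libraries. Where Ccl5 was found, its mean was 35.0 UMIs per positive cell in the Klrb1c class, 22.7 in the Cxcr6 class, 9.63 in the Foxp3 class and 5.58 in the zero class, over both libraries. The zero-class share cannot be read as a share of cells that express Ccl5, although single cells of the class held up to 371 UMIs of it. A Ccl5 UMI was also found in 14 of 51 B cells (27.5%, median 5351 UMIs per cell), 36 of 99 myeloid cells (36.4%, median 7309) and 69 of 197 fibroblasts (35.0%, median 4003), against a median of 4921 UMIs over the T cells. The left-out erythroid cluster had it in 444 of 611 cells (72.7%) at a median of 1481 UMIs. The highest B cell held 193 Ccl5 UMIs and the highest myeloid cell 292. The Foxp3-class shares were above those of the B, myeloid and fibroblast cells and below that of the erythroid cluster.

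Of the 5 genes, Xcl1 had the widest gap in the share of positive cells between the Klrb1c class and the next class. It was found in 82.6% of Klrb1c-class cells in experiment 1 (exact 95% interval 73.3 to 89.7%) and 76.6% in experiment 2 (69.9 to 82.4%). The Cxcr6 class had 22.8% and 24.5%, the Cxcr3 class 8.35% and 11.8%, the Foxp3 class 3.14% and 5.03% and the zero class 1.91% and 3.55%. The intervals of the Klrb1c and Cxcr6 classes were far apart in both libraries. The Foxp3 and zero classes were near the 3.92% of B cells, 2.02% of myeloid cells and 3.05% of fibroblasts with an Xcl1 UMI (9.49% in the erythroid cluster), so those shares cannot be read as shares of cells that express it. Single cells of both classes stood above that level, with up to 382 Xcl1 UMIs in a zero-class cell and 17 in a Foxp3-class cell.

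Ccl4 and Ccl3 were also found most often in the Klrb1c class. Ccl4 was found in 26.1% and 18.1% of the Klrb1c class in the 2 libraries, in 6.48% and 5.01% of the Cxcr6 class, and in 0.956% and 0.853% of the zero class. Ccl3 was found in 4.35% and 4.26% of the Klrb1c class, in 0.569% and 1.30% of the Cxcr6 class and in 1.43% and 1.01% of the Foxp3 class. Among the left-out myeloid cells, which are known makers of both, Ccl4 and Ccl3 were each found in 8.08%. In the left-out B cells and fibroblasts the share with Ccl4 was at most 3.92%, and Ccl3 was at 0.

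Ccl1 stood apart from the other 4 genes. None of the 280 Klrb1c-class cells held a Ccl1 UMI, which allows a share of cells with a captured UMI of up to 1.07% (3 counts of the total, counting error only). The class misses cells in which Klrb1c was not captured, and Ccl1 was among the leading genes of a cluster of 708 cells, beside Xcl1, Ccl4, Klra1 and Cd160. Its shares were 1.93% and 1.03% in the Cxcr6 class, 1.43% and 1.01% in the Foxp3 class and 0.403% and 0.562% in the zero class, with overlapping intervals between the Cxcr6 and Foxp3 classes in both libraries.

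**Figure D1:**
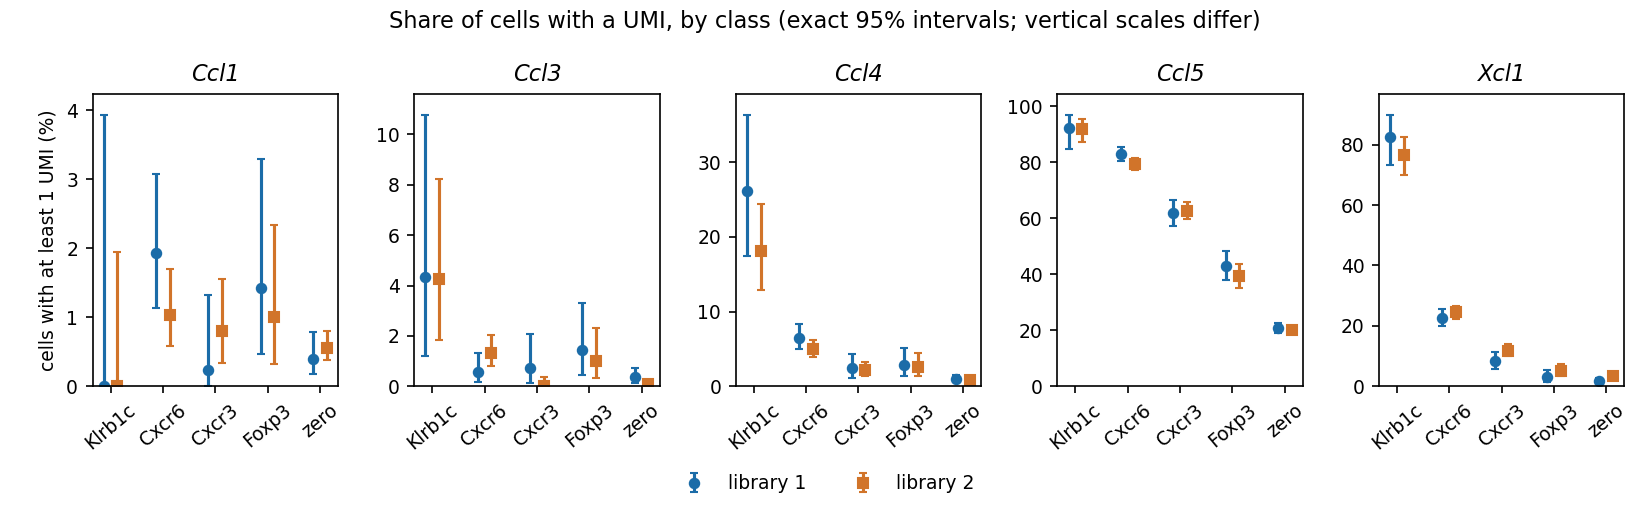
Share of cells with at least 1 UMI of each chemokine gene (vertical axis, %, scales differ between panels) in the 5 classes of cells (horizontal axis), for experiment 1 (library 1, circles) and experiment 2 (library 2, squares), with exact 95% binomial intervals. Ccl5 falls stepwise from above 90% in the Klrb1c class to about 20% in the zero class, Xcl1 drops from 82.6% and 76.6% to below 25% after the Klrb1c class, and Ccl1 is the only gene at 0 in the Klrb1c class.

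Read the other way, each gene's transcripts were spread over different cells. Of all T cells, 21.9% had a Cxcr6 UMI, 7.04% a Foxp3 UMI, 2.39% a Klrb1c UMI and 63.9% neither Cxcr3 nor Cxcr6, groups that overlap. Cells with Cxcr6 held 64.8% of the Ccl5 UMIs, 59.1% of Xcl1, 49.8% of Ccl3, 47.8% of Ccl4 and 22.0% of Ccl1. The few cells with Klrb1c held 37.8% of the Ccl3 UMIs, 34.4% of Ccl4, 28.3% of Xcl1, 12.2% of Ccl5 and none of Ccl1. Cells with Foxp3 held 13.1% of the Ccl3 UMIs, 7.91% of Ccl4, 4.34% of Ccl5, 3.88% of Ccl1 and 1.51% of Xcl1. Cells without Cxcr3 and Cxcr6 held 69.6% of the Ccl1 UMIs, against 13.3% of those of Ccl5.

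How many cells carried a gene's UMIs differed by orders of magnitude. Ccl5 gave 76929 UMIs in 4830 cells, and the 566 highest cells held 50% of them. Xcl1 gave 6677 UMIs in 1187 cells, with 50% in 76 cells. Ccl4 gave 2971 UMIs in 306 cells with 50% in 10 cells, and Ccl3 259 UMIs in 61 cells with 50% in 8. Ccl1 gave 1521 UMIs in 88 cells, with 50% in 3 cells, and 24 cells with at least 10 UMIs held 90.0%. A level of Ccl1, Ccl3 or Ccl4 in a sample therefore rested on a handful of cells.

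The 3 highest cells of Ccl1, of Ccl3, of Ccl4 and of Xcl1 all held UMIs of at least 1 other ligand. By contrast, the 3 highest cells of Ccl5 (371, 341 and 291 UMIs, all of the zero class) held none of the other ligands. The cell with the most Ccl1, a zero-class cell of BAT sample 3 with 14361 UMIs in all, held 486 Ccl1 UMIs (31.95% of all Ccl1 found) and 96 of Xcl1. A cell of experiment 1 without a tissue call, with 7133 UMIs in all, held 240 of Ccl1, 200 of Ccl4 and 382 of Xcl1, the highest Xcl1 count of the data. The cell with the most Ccl3 and Ccl4, a Klrb1c-class cell of SAT sample 3 with 6043 UMIs in all, held 46 of Ccl3, 291 of Ccl4 and 181 of Xcl1.

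**Figure D2:**
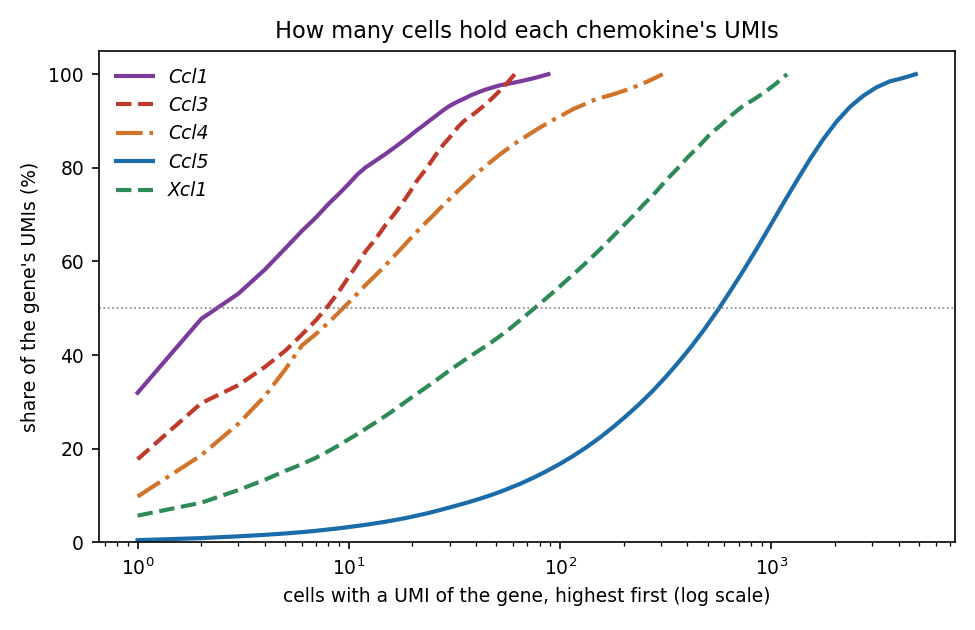
Cumulative share of each gene's UMIs (vertical axis, %) held by the cells with the most of them (horizontal axis, number of cells, log scale), over all 12031 T cells. The dotted line marks 50%: Ccl1 crosses it at 3 cells, Ccl3 at 8, Ccl4 at 10, Xcl1 at 76 and Ccl5 at 566.

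Detection of the genes in the same cell was described without a test, because deeper cells show more genes and the classes share them. Barcodes called to a pair of hashtags were kept here, and genes of different cells can appear together in them. Of the 61 cells with Ccl3, 35 also had Ccl4 (57.4%), against 2.26% of the other T cells. With every cell thinned to 1300 UMIs the shares were 57.1% and 1.19%. Of the 306 Ccl4 cells, 167 had Xcl1 (54.6%, against 8.70% of the rest) and 277 had Ccl5 (90.5%, against 38.8%). Xcl1 cells had Ccl5 in 1069 of 1187 cases (90.1%, against 34.7% of the rest), whereas 22.1% of the Ccl5 cells had Xcl1. Ccl1 cells had Xcl1 in 47 of 88 cases (53.4%, against 9.55% of the rest), but Ccl3 in only 2. After thinning, the Ccl1 cells had Xcl1 in 54.0% of cases, against 5.13% of the rest.

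The other genes in the positive cells differed between the ligands. In cells with at least 2 Ccl1 UMIs (14 in experiment 1 and 37 in experiment 2), Egr2, an early target of T cell receptor signalling, was at 186 and 127 CPM (UMIs per 1000000 UMIs of the summed cells), against 8.32 and 6.40 CPM in cells without Ccl1. Tnfsf11, which encodes the cytokine RANKL, was at 133 and 248 CPM in the same cells, against 12.7 and 9.97 CPM. Ccr8, the receptor of Ccl1, was at 39.8 and 42.3 CPM, against 4.55 and 2.57 CPM. These partner genes were picked from fixed lists after their values were seen, so their levels are a description only.

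For Ccl3 (10 and 24 cells), Ifng, the gene of interferon gamma, was at 767 and 1282 CPM, against 101.7 and 83.5 CPM in cells without Ccl3. Csf2, the gene of GM-CSF, was at 128 and 580 CPM in the Ccl3 cells, against 11.4 and 3.88 CPM. Gzmb, the gene of granzyme B, was at 168 and 396 CPM in the cells with at least 2 Ccl4 UMIs (58 and 88 cells), against 21.2 and 29.9 CPM. Cells with at least 2 Ccl5 UMIs (1150 and 2446) had Nkg7, a cytotoxic granule gene, at 583 and 829.2 CPM, against 36.7 and 45.7 CPM. Cells with at least 2 Xcl1 UMIs (231 and 463) had Zbtb16, the factor PLZF of innate-like T cells, at 17.9 and 15.6 CPM, against 0.866 and 0.890 CPM.

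Class differences were tested on UMI sums per class and hashed sample with edgeR's quasi-likelihood test, with the hashed sample as a block and p-values adjusted over all genes tested (Benjamini-Hochberg). A gene passed with an adjusted p under 0.05, and a fold change is given on the log2 scale with its standard error. Against the zero class, the Cxcr6 class was higher in 3 of the 5 chemokine genes, where 24.2% of all genes tested were higher. Ccl5 was higher by 3.44 ± 0.31 (adjusted p = 1.1e-14) and Xcl1 by 2.33 ± 0.33 (adjusted p = 2.0e-08), each in 14 of 14 samples. Ccl3 was higher by 2.63 ± 0.70 (adjusted p = 0.0017), but not in every sample. It was higher in BAT samples 1 and 3, SAT samples 3 and 4 and VAT samples 2 and 3. In the other samples it was lower in the Cxcr6 class or at 0 in both classes.

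Between the Klrb1c and Cxcr6 classes, where 1.77% of the genes tested were higher in the Klrb1c class, 3 of the 5 chemokine genes were. Ccl4 was higher by 3.26 ± 0.50 (adjusted p = 6.7e-06, higher in 4 of 5 samples), Ccl3 by 3.14 ± 0.62 (adjusted p = 0.00097, 5 of 5 samples) and Xcl1 by 2.09 ± 0.39 (adjusted p = 0.00023, 5 of 5 samples). Ccl5 differed by 0.37 ± 0.42 (95% interval -0.45 to 1.18, adjusted p = 0.77), although it was higher in the Klrb1c class in 5 of 5 samples. The Ccl3 call was lost without SAT sample 3 (adjusted p = 0.112). None of the 3 calls was made by DESeq2, which put 2 of the 5 genes under an unadjusted p of 0.05. Of 8 tested cytotoxic genes 4 rose beside the chemokines, namely Gzma (5.62), Prf1 (2.92), Gzmb (2.30) and Ctsw (1.12), and none fell.

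The Klrb1c class also held more transcript of natural killer cell markers. All 6 genes of that list were found in it, with a sum of 234 and 251 CPM in the 2 libraries, against 7.45 and 11.6 CPM in the Cxcr6 class, where 3 and 2 of the 6 were at 0. Trac was found in 92.5% and Ncr1 in 6.79% of the Klrb1c class. In the 244 cells with Trac and without Ncr1, Xcl1 was found in 79.1%, Ccl4 in 18.0%, Ccl5 in 91.8% and Ccl3 in 3.28%, close to the whole class. In the 19 cells with Ncr1, Ccl4 was found in 57.9% and Xcl1 in 78.9%.

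Foxp3-class cells had less Ccl5 and Xcl1 than the Cxcr6 class. In that comparison 9.12% of genes were lower in the Foxp3 class and 2 of the 5 chemokine genes were. Ccl1, Ccl3 and Ccl4 were not called in either direction, and the median log2 difference over the 5 was 0.18. Ccl5 fell by 2.85 ± 0.36 on the log2 scale (adjusted p = 3.9e-09) and Xcl1 fell by 3.86 ± 0.61 (adjusted p = 1.1e-06), each lower in the Foxp3 class in all 11 samples. Against the zero class, where 17.9% of genes were higher in the Foxp3 class, Ccl3 alone of the 5 was called, by 3.69 ± 0.82 (adjusted p = 0.00029). The whole Foxp3 class held 34 Ccl3 UMIs in 10 cells. Ccl3 was higher in SAT samples 1 and 3 and VAT samples 2, 3 and 4. It was lower in BAT sample 1, SAT sample 4 and VAT sample 1, and at 0 in both classes in the other samples. Ccl5 differed by 0.59 ± 0.35 (adjusted p = 0.20) and was higher in 10 of 13 samples. Xcl1 differed by -1.52 ± 0.74 (adjusted p = 0.11). Among other chemokine ligands Cxcl2, a neutrophil attractant, rose in the Foxp3 class by 7.68 ± 0.39 against the Cxcr6 class, and among receptors Ccr3 rose by 3.56.

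Other effector genes moved with the ligands in the Cxcr6 class against the zero class. Of 7 cytokine genes tested, 6 rose, among them Ifng (2.93), Il2 (2.79), Csf2 (2.18) and Tnf (2.05), and 1 fell. The effector transcription factors Id2 (3.03), Tbx21 (3.01) and Bhlhe40 (2.83) were among the 6 of 7 that rose.

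By tissue, levels were taken as CPM over all T cells of a hashed sample, samples 1 to 4 in order. Ccl5 was at 2324, 2087, 1842 and 3173 CPM in SAT and at 2069, 1992, 1741 and 1852 CPM in VAT. It was at 334, 450, 578 and 639 CPM in BAT and at 64.5, 140, 131 and 127 CPM in the spleen. SAT and VAT overlapped, while BAT lay below both and above the spleen without overlap. The means were 2356 ± 579 in SAT, 1913 ± 146 in VAT, 500 ± 136 in BAT and 116 ± 34.6 in the spleen (CPM, SD, n = 4 each).

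Between SAT and VAT, where 2.69% of genes were higher in SAT, 2 of the 5 chemokine genes were and Ccl5 was not (0.25 ± 0.15, 95% interval -0.04 to 0.54, adjusted p = 0.42). The 2 were Xcl1 and Ccl3, given in turn. In BAT against SAT, where 17.8% of genes were lower in BAT, 4 of the 5 were, and in BAT against VAT, where 16.4% were lower, 2 of the 5 were. Ccl5 fell by 2.10 ± 0.16 on the log2 scale in BAT against SAT (adjusted p = 2.6e-09) and fell by 1.85 ± 0.16 against VAT (adjusted p = 1.2e-08).

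Fat was compared with the spleen in the same fit. In SAT 21.3% of genes were higher than in the spleen and 4 of the 5 chemokine genes were, in VAT 20.3% and all 5, and in BAT 5.06% and 4 of the 5. Ccl5 was higher by 4.21 ± 0.18 in SAT, 3.97 ± 0.18 in VAT and 2.11 ± 0.17 in BAT, each in comparison with the spleen. Within experiment 1 the log2 ratios for Ccl5 were 4.52, 4.40 and 2.01, and within experiment 2 they were 4.22, 3.79 and 2.23. A list of 14 immediate early and dissociation-response genes moved with these differences: its summed level was 325 to 467 CPM in spleen samples, 1352 to 1988 in BAT, 2312 to 3748 in SAT and 1911 to 4022 in VAT. Digestion and tissue cannot be told apart here.

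Class composition moved with the tissue as well. The Cxcr6 class made up 36.9% ± 6.41 of T cells in SAT, 32.5% ± 7.43 in VAT, 8.31% ± 1.85 in BAT and 2.82% ± 0.951 in the spleen (SD, n = 4). The Klrb1c class made up 4.41% ± 0.725 in SAT, 2.91% ± 0.385 in VAT, 0.824% ± 0.463 in BAT and 1.11% ± 0.296 in the spleen, the 3 fat depots without overlap. The part of either class in the differences of Xcl1, Ccl3 and Ccl4 over all T cells was not tested. In a sum over all T cells, more cells of the class and more transcript per cell cannot be told apart. The Ccl5 share of positive cells was 61.7% ± 9.13 in SAT, 50.3% ± 10.6 in VAT, 22.4% ± 3.74 in BAT and 15.1% ± 6.61 in the spleen, and 49.5%, 39.5%, 11.9% and 4.59% after thinning. Those of BAT and the spleen were below the 27.5% of left-out B cells.

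Xcl1 set SAT apart from the other tissues. It was at 287, 141, 284 and 293 CPM in SAT, at 53.8, 67.7, 71.5 and 63.4 CPM in VAT, at 20.4, 32.1, 94.3 and 38.9 CPM in BAT, and at 4.03, 9.41, 5.36 and 10.3 CPM in the spleen. Every SAT sample was above every sample of the other tissues, BAT and VAT overlapped, and the spleen was below all fat samples. Between SAT and VAT the difference was 1.96 ± 0.21 (adjusted p = 5.0e-06), and within the experiments the log2 ratios were 1.72 and 2.08. BAT was lower than SAT by a log2 difference of -2.27 ± 0.22 (adjusted p = 5.7e-08) and differed from VAT by -0.31 ± 0.25 (95% interval -0.80 to 0.18, adjusted p = 0.38). Against the spleen Xcl1 was higher by 5.01 ± 0.29 in SAT, 3.05 ± 0.33 in VAT and 2.74 ± 0.36 in BAT.

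Ccl4 varied more between samples. It was at 119, 12.5, 152 and 138 CPM in SAT, at 9.69, 56.3, 88.5 and 17.3 CPM in VAT, at 8.33, 16.7, 13.1 and 1.21 CPM in BAT, and at 2.52, 1.81, 0.233 and 0.413 CPM in the spleen. The 3 fat depots overlapped, SAT sample 2 being far below the other SAT samples. SAT was higher than VAT by 1.29 ± 0.40, which missed the threshold (adjusted p = 0.071). Ccl4 was lower in BAT than in SAT by a log2 difference of -3.20 ± 0.56 (adjusted p = 9.2e-05) and than in VAT by -1.92 ± 0.63 (adjusted p = 0.022). Against the spleen, where Ccl4 came from 13 single UMIs, it was higher by 6.79 ± 0.79 in SAT and 5.51 ± 0.92 in VAT, and by 3.59 ± 1.33 in BAT, which did not pass (adjusted p = 0.11). The difference of BAT and VAT no longer passed when BAT sample 3 or 4 or VAT sample 2 or 3 was left out (adjusted p up to 0.178). DESeq2 did not call it either (adjusted p = 0.0948).

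Ccl3 was not found in any spleen cell, 0 of 2489, which allows a share of cells with a captured UMI of up to 0.121% (3 counts of the total). It was at 4.38, 0, 23.6 and 17.4 CPM in SAT, at 0.669, 2.64, 1.54 and 4.17 CPM in VAT and at 1.14, 0.465, 3.36 and 0 CPM in BAT. Set against the floor of 3 counts over all spleen samples, it was at least 63.6-fold higher in SAT, at least 10.2-fold higher in VAT and at least 6.88-fold higher in BAT, all 3 differences passing the test. The BAT call was lost without BAT sample 1, 2 or 3 or spleen sample 3 or 4 (adjusted p up to 0.207). It was also lost by DESeq2 and with a block on the label numbers of the samples (adjusted p up to 0.0628). Ccl3 was also higher in SAT than in VAT by 2.38 ± 0.48 (adjusted p = 0.0057), but the samples overlapped and the log2 ratio was -0.09 within experiment 1 and 2.55 within experiment 2. Without VAT sample 3 that call was lost (adjusted p = 0.0762), and DESeq2 did not make it (adjusted p = 0.559). BAT was lower than SAT by a log2 difference of -2.74 ± 0.56 (adjusted p = 0.00072), a call that DESeq2 did not make (adjusted p = 0.0774).

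Ccl1 was set by single cells. It was at 0.379, 0, 187 and 21.2 CPM in BAT, at 41.3, 0.695, 0.323 and 5.15 CPM in SAT, at 2.34, 45.3, 12.3 and 22.9 CPM in VAT, and at 0, 0.362, 0 and 0.207 CPM in the spleen. All 4 VAT samples were above the spleen, whereas BAT and SAT overlapped it. With 2 Ccl1 UMIs in the spleen, the ratio of pooled levels was 128 for VAT (95% counting interval 35.1 to 1063) and 437 for BAT (120 to 3616). These intervals take each UMI as independent, although 1 cell held 486 of the 593 BAT UMIs, so they do not cover the spread between cells or samples. The VAT and BAT differences from the spleen passed the edgeR test (adjusted p = 0.029 and 0.0078). The BAT call was lost without BAT sample 3 (adjusted p = 0.285), whose highest cell held 486 of 557 Ccl1 UMIs, and the VAT call without VAT sample 2 or spleen sample 3 or 4 (adjusted p up to 0.0859). Within experiment 1 the log2 ratio of BAT to spleen was 0.01, and within experiment 2 it was 5.88. SAT against the spleen was not called by edgeR (adjusted p = 0.079) and was by DESeq2 (adjusted p = 0.0112).

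**Figure D3:**
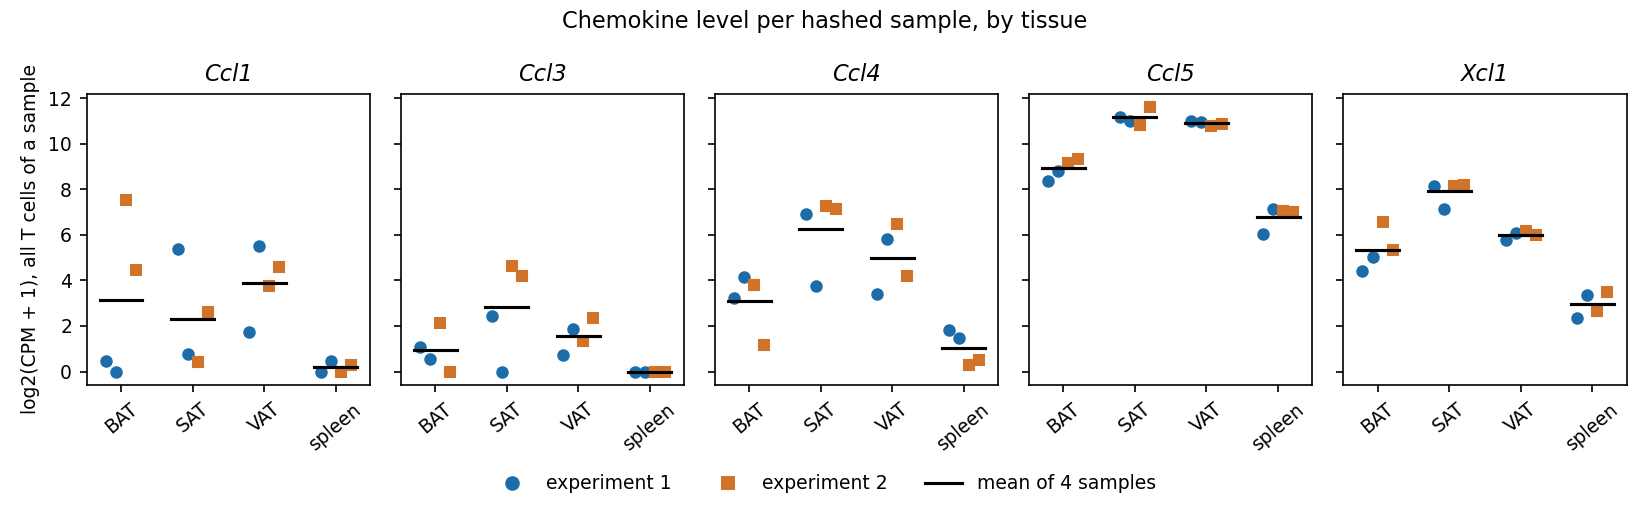
Level of each chemokine gene as log2(CPM + 1) over all T cells of a hashed sample (vertical axis), by tissue (horizontal axis), with circles for experiment 1, squares for experiment 2 and a line at the mean of 4 samples. The 4 SAT samples are the highest for Xcl1, SAT and VAT overlap for Ccl5, and the points of Ccl1 and Ccl3 scatter within each fat depot.

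Comparing tissues inside the Cxcr6 class removes the difference in class size. Ccl5 was then at 2895, 2925, 3413 and 4866 CPM in SAT, at 2914, 3511, 3749 and 3237 CPM in VAT and at 2317, 3099, 2029 and 3367 CPM in BAT. The depots overlapped. SAT and VAT differed by 0.01 ± 0.14 (95% interval -0.26 to 0.28, adjusted p = 0.99), so a difference beyond 0.28 on the log2 scale lay outside the interval. Of the 5 chemokine genes Xcl1 and Ccl3 were higher in SAT than in VAT in this class, where 1.53% of genes were.

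For Xcl1 in the Cxcr6 class, SAT was at 328, 280, 346 and 311 CPM, VAT at 63.5, 56.3, 106 and 88.0 CPM and BAT at 181, 214, 188 and 317 CPM. SAT did not overlap VAT. The difference of SAT and VAT was 1.96 ± 0.14 (95% interval 1.68 to 2.24, adjusted p = 3.7e-11), with log2 ratios of 2.32 and 1.75 within experiments 1 and 2. Both the share of positive cells and the count in them differed. A UMI of Xcl1 was found in 29.8%, 23.0%, 32.97% and 30.6% of the SAT cells and in 17.5%, 17.1%, 16.4% and 16.2% of the VAT cells. Positive cells held a mean of 7.12, 8.05, 5.36 and 5.20 UMIs of Xcl1 in SAT and 2.67, 2.27, 3.53 and 2.88 in VAT. Each SAT value was above each VAT value in both measures. After thinning, SAT was at 13.3%, 13.8%, 20.5% and 16.8% and VAT at 6.43%, 5.43%, 9.66% and 7.37%, again without overlap.

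**Figure D4:**
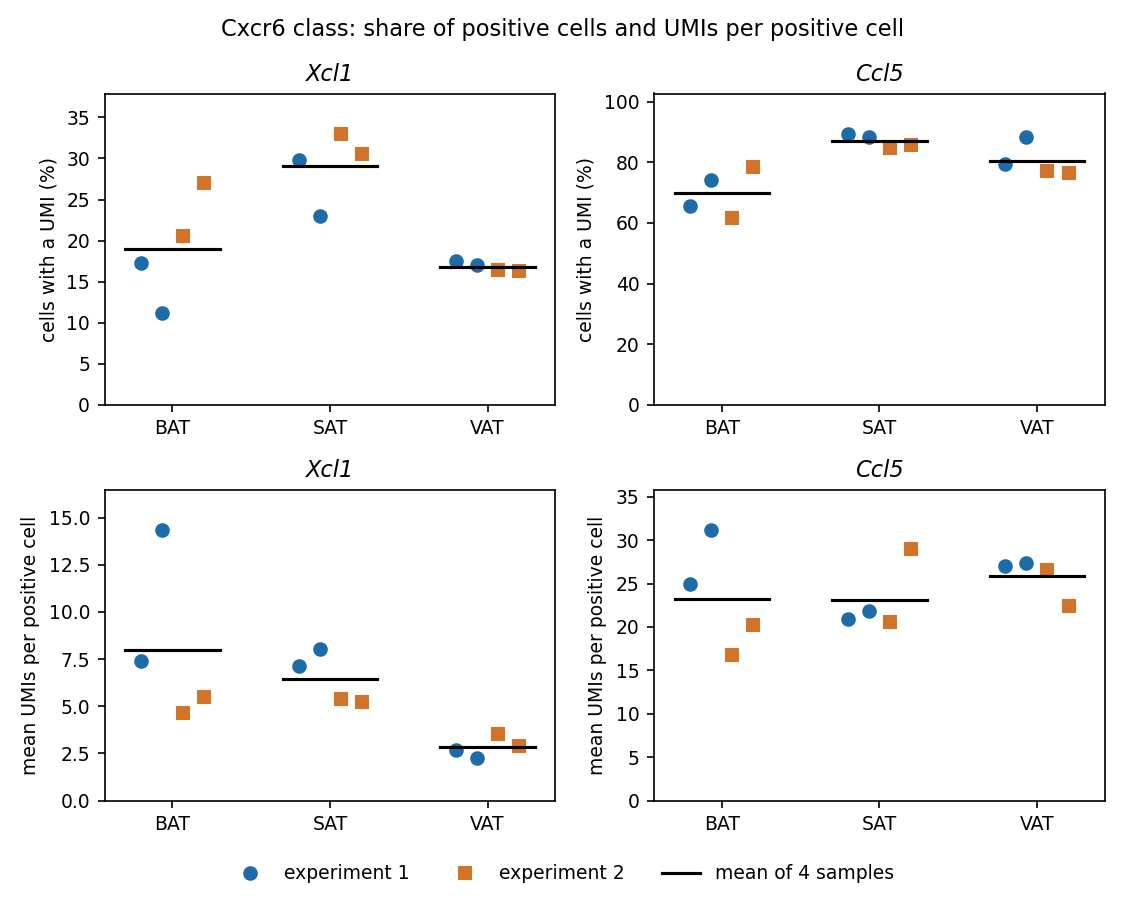
Cxcr6 class in the fat depots (horizontal axis): cells with a UMI of Xcl1 or Ccl5 (upper panels, %) and mean UMIs per positive cell (lower panels), with 1 point per hashed sample, circles for experiment 1, squares for experiment 2 and a line at the mean of 4 samples. For Xcl1 the SAT points (22.99 to 32.97% and 5.20 to 8.05 UMIs) lie above the VAT points (16.2 to 17.5% and 2.27 to 3.53 UMIs), while the Ccl5 points of SAT and VAT overlap.

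Ccl3 in the Cxcr6 class was higher in SAT than in VAT by 3.12 ± 0.70 (adjusted p = 0.0086), but the log2 ratio was -0.97 within experiment 1 and 3.61 within experiment 2, and the call was lost without VAT sample 3 or 4 (adjusted p up to 0.188). Ccl4 was at 118, 22.6, 26.5 and 99.1 CPM in SAT and at 14.3, 102.4, 106 and 23.9 CPM in VAT, which overlapped. Its difference was 0.27 ± 0.39 (95% interval -0.50 to 1.04, adjusted p = 0.86). Between BAT and SAT edgeR called none of the 5 genes in this class, where 0.445% of all genes passed. There 4 of the 5 had an unadjusted p under 0.05 by edgeR and 2 by DESeq2, which called none after adjustment. Xcl1 differed by -0.49 ± 0.16 (95% interval -0.81 to -0.17, adjusted p = 0.22) and Ccl5 by -0.33 ± 0.15 (-0.61 to -0.04, adjusted p = 0.43).

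Other genes that differed between SAT and VAT in the Cxcr6 class were few. Of 8 cytotoxic genes Gzmb rose in SAT by 1.91 ± 0.29 and Ctsw by 0.51 ± 0.09, and Gzmk fell by 1.96 ± 0.45 on the log2 scale. Of 9 cytokine genes Ifng (0.60 ± 0.15) and Il2 (0.45 ± 0.12) rose and Tnfsf11 fell by 1.10 ± 0.24. None of 6 NF-kB pathway genes, of 8 transcription factors and of 2 other chemokine ligands passed. Of 13 immediate early and dissociation-response genes, 2 heat shock genes, Hspa1a and Hspa1b, fell in SAT by 1.03 and 0.75. The median over all genes tested was -0.02, and over the 5 chemokine genes 0.27.

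In the Klrb1c class, SAT samples 1, 3 and 4 and VAT samples 3 and 4 had enough cells for a test. SAT sample 1 was the only one of experiment 1. With the experiment as covariate, the difference between the depots therefore rested on samples 3 and 4 of each. Of 4 chemokine genes tested 3 were higher in SAT, where 0.584% of all genes were. Xcl1 was at 963, 2064 and 2003 CPM in SAT and at 637 and 864 CPM in VAT, without overlap, and was higher in SAT by 1.41 ± 0.20 (adjusted p = 3.8e-06). In the samples of experiment 1 left out of the test, of 8 to 14 cells each, Xcl1 was at 524 CPM in SAT and at 414 and 1286 CPM in VAT, so with them the depots overlapped. Ccl4 was at 290, 1959 and 1891 CPM in SAT and at 101 and 202 CPM in VAT, from 22 and 10 positive cells, and was higher by 3.65 ± 0.25 (adjusted p = 1.5e-15). In SAT sample 3, 1 cell held 291 of the 298 Ccl4 UMIs, and in SAT sample 4, 1 cell held 175 of 372. The mean share of Ccl4-positive cells was 23.6% in SAT and 22.0% in VAT. In the samples left out of the test Ccl4 was at 15.9 CPM in SAT and at 47.1 and 429 CPM in VAT, so with them the depots overlapped. Ccl3 was higher by 3.02 ± 0.60 (adjusted p = 0.0022), from 6 positive cells in SAT and 2 in VAT, a call that DESeq2 did not make (adjusted p = 0.861). With a block on the label numbers of the samples, the Xcl1 and Ccl3 calls were lost. Ccl5 was at 6010, 4831 and 9069 CPM in SAT and at 8303 and 5366 CPM in VAT, which overlapped, with a difference of -0.01 ± 0.21 (95% interval -0.41 to 0.40, adjusted p = 0.99). Gzma fell in SAT by 6.48 ± 0.49 on the log2 scale and Gzmb rose by 2.04 ± 0.35, the other 3 of the 5 cytotoxic genes tested not passing.

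Xcl1 thus passed the test between SAT and VAT in the Cxcr6 class and, resting on samples 3 and 4 of each depot, in the Klrb1c class, and Ccl5 in neither. Whether the Xcl1 difference was of another size than that of Ccl5 was not tested.

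**Figure D5:**
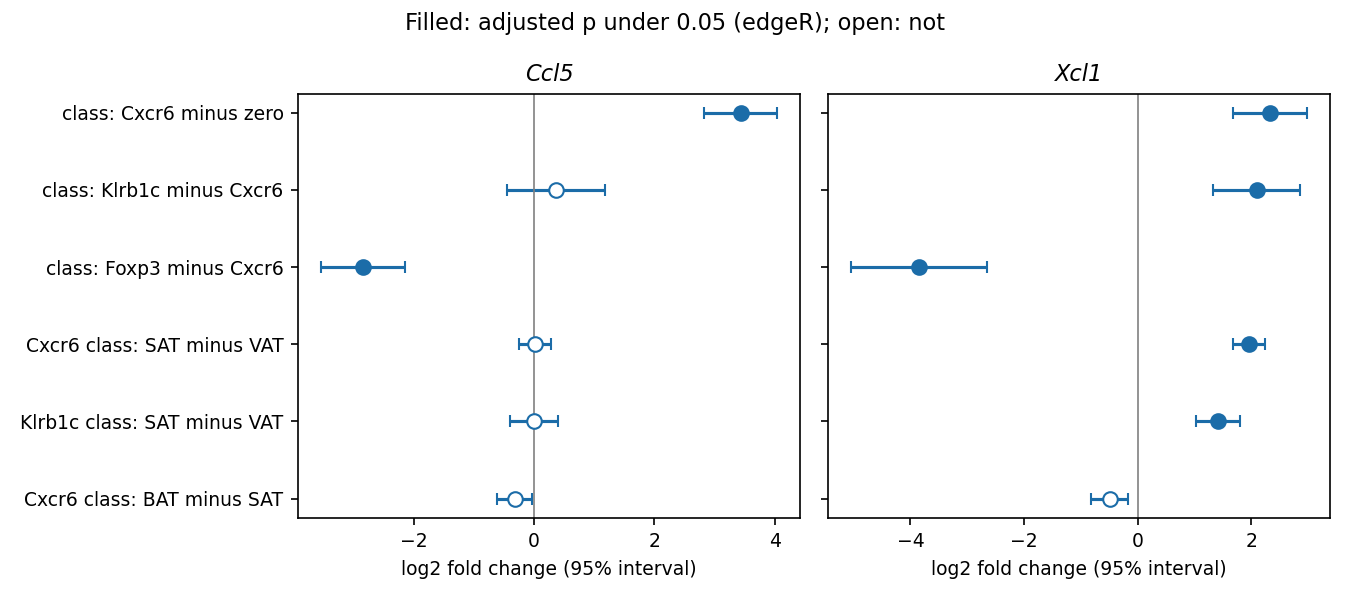
Log2 fold changes of Ccl5 (left) and Xcl1 (right) with 95% intervals (horizontal axis) in 6 comparisons of classes and fat depots (vertical axis), from edgeR's quasi-likelihood test. Filled points passed an adjusted p of 0.05. Xcl1 is at 1.96 and 1.41 for SAT minus VAT in the Cxcr6 and Klrb1c classes, where Ccl5 is at 0.01 and -0.01.

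Foxp3-class cells of SAT and VAT held more Ccl5 than those of the spleen. In the Foxp3 class Ccl5 was at 1551, 624.5 and 1159 CPM in SAT samples 1, 3 and 4, at 334, 301, 511 and 544 CPM in VAT, and at 60.9, 126, 31.4 and 4.13 CPM in the spleen. Of BAT, samples 1 and 4 had enough cells and were at 75.0 and 1237 CPM, the first below spleen sample 2, and BAT was not tested in this class. SAT, VAT and the spleen did not overlap, SAT being the highest. A Ccl5 UMI was found in 65.2%, 62.2% and 43.9% of these cells in SAT, in 39.6%, 42.5%, 32.4% and 37.2% in VAT and in 23.1%, 24.5%, 13.3% and 1.89% in the spleen. The spleen shares were below the 27.5% of left-out B cells, and the VAT shares were near the 36.4% of left-out myeloid cells.

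Against the spleen, 2 of 3 chemokine genes tested in the Foxp3 class were higher in SAT, where 4.93% of genes were, and 1 of 3 in VAT, where 6.64% were. Ccl5 was higher by 4.17 ± 0.53 in SAT (adjusted p = 6.5e-06) and by 2.77 ± 0.54 in VAT (adjusted p = 0.00091). Ccl4, at 101, 497 and 7.07 CPM in SAT and with 1 UMI in the spleen, was higher in SAT at a ratio of pooled levels of 163 (95% counting interval 28.9 to 6491, adjusted p = 0.00098). That interval takes each UMI as independent, although the 153 SAT UMIs came from 12 cells, 1 of which held 73. DESeq2 did not make this Ccl4 call (adjusted p = 0.0550). Between SAT and VAT edgeR called none of the 3 genes, where 0.141% of all genes passed. There 2 of the 3 had an unadjusted p under 0.05 by edgeR and 0 by DESeq2. Ccl5 differed by 1.40 ± 0.42 (95% interval 0.58 to 2.22, adjusted p = 0.35), although the samples did not overlap.

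The genes whose levels ran most like each ligand were found over 60 class sums of hashed samples (Pearson's r of log2(CPM + 10), genes of at least 20 CPM on average). The sums share libraries and depth, so r is a description. For Ccl5 they were Nkg7 (0.97), Id2 (0.93), Tbx21 (0.88), Anxa2 (0.86) and Ctsw (0.86). For Xcl1 they were Ctsw (0.90), Slamf7 (0.89), Arl4d (0.89), Ly6c2 (0.87) and Klrb1f (0.86). Ccl3 ran closest to Ccl4 (0.73), Klrb1c (0.69), Fcer1g (0.69), Klra1 (0.68) and Dtnbp1 (0.66). Ccl4 ran closest to Rnf130 (0.73), Fcer1g (0.69), Klrb1f (0.69), Cd160 (0.68) and Xcl1 (0.67). For Ccl1 no gene was above 0.36, the value of Hspa1a, followed by Hspa1b, Trnt1, Jun and 2900060B14Rik.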

How the data were processed

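Per the labels, CD4 T cells sorted as TCRb+CD3+CD4+ were loaded in 2 droplet runs, each with 8 hashed samples from 4 tissues. The authors deposited unnormalized UMI counts per gene and barcode, made with Cell Ranger 6.1.0 per the file headers and aligned to mm10 per the submitters' processing notes, which also list bcl2fastq and Seurat. No values were scaled or corrected by the authors in these count matrices.

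Of 4485 and 12239 barcodes, those with 500 genes and 1000 UMIs or more and a mitochondrial share below 10% were used (3985 and 9004 cells). Hashtag counts were modelled as 8 single tags or 28 pairs, and a cell was given a tissue at a posterior above 0.95. From the sums of hashed samples this left out 366 and 1506 multiplets, the only treatment of doublets, and 492 and 1481 unresolved cells. Results per library or over both libraries used cells with and without a tissue call, so multiplets stayed in. These were the class and gate shares, the highest cells, joint detection, partner genes, left-out clusters and sums per library. On simulated hashtag counts 83.7% of 3490 single cells were called, 100% of them with the right tag, and 8.24% of 510 pairs were called single. Clusters (scanpy 1.11.5, leidenalg 0.10.2, 2000 variable genes, 30 components, 15 neighbours, resolution 1.0) served to drop other cell types. Counts were summed per hashed sample and class, with at least 20 cells, giving 60 class sums of 94608 to 4224451 UMIs. CPM were computed from these sums. Sums were tested with edgeR 4.0.16 (quasi-likelihood, TMM, filterByExpr with a minimum count of 10), with the experiment or, between classes, the hashed sample as covariate and Benjamini-Hochberg adjustment over all genes tested. The 16 comparisons held 73 tests of the 5 genes. Foxp3, Klrb1c, Cxcr6 and Cxcr3 were left out of the class comparisons. Log2 intervals are normal 95% intervals from the standard error, and intervals of shares are exact Clopper-Pearson intervals of counting error only. Within-experiment ratios are differences of mean log2(CPM + 1). Thinned shares use cells cut at random to 1300 UMIs, which leaves out 3 and 604 shallower cells. On simulated counts for SAT against VAT over all T cells (10291 genes), 95.0% of 4-fold and 21.2% of 2-fold changes were recovered, and for the Klrb1c against the Cxcr6 class (6544 genes) 99.0% and 35.5%.

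The 5 genes, classes and gene lists were chosen with earlier results of these data known. Named beside them are genes of fixed lists (receptors, other ligands, cytokines, cytotoxic, NF-kB, transcription factor and immediate early genes) that passed in a described comparison, up to 4 per list by size of change, and for each ligand the 5 genes of highest correlation. The results of 1 listed gene are not reported here. Partner genes in positive cells were chosen from those lists after their values were seen. Alternatives were DESeq2 1.42.0 and its size factors, no filter on low counts, a replicate block, a stricter hashtag call, thinning, 2 UMIs for a class, sums per library, leaving out cells with other markers and leaving out each sample. Leaving out the cluster of few UMIs, or the highest cells of each sample, was chosen after seeing the data.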

Additional observations from a re-analysis of the deposited data

Results flagged for a closer look

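In each tissue, over all T cells and within the Cxcr6 and Foxp3 classes, the 4 hashed samples were checked for 1 value far from the others, in 42 groups of values. The check marked 10 groups, 6 of them for Ccl1. Its cutoff marks about 1 group in 20 where values are normally distributed, a rate that does not hold for sparse counts. A group with UMIs in only 1 sample is always marked, so the number marked cannot be set against that rate.

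Over all T cells, Ccl1 in BAT sample 3 was at 187 CPM with the next sample at 21.2 CPM, and in SAT sample 1 at 41.3 CPM with the next at 5.15 CPM. Xcl1 was marked at its low end, with SAT sample 2 at 141 CPM and the other 3 SAT samples between 284 and 293 CPM.

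Within the Cxcr6 class, the highest Ccl1 values were 190 CPM in BAT (next sample 26.0), 9.87 CPM in SAT (next 1.21) and 95.6 CPM in VAT (next 6.70). Within the Foxp3 class, Ccl1 reached 115 CPM in 1 VAT sample (next 15.6) and Ccl4 reached 93.6 CPM in 1 VAT sample (next 10.96). The highest spleen sample of the Foxp3 class was at 3.49 CPM for Ccl4 and at 9.24 CPM for Xcl1, with the next spleen sample at 0 in both cases. These values rest on few cells, since 3 cells held 50% of all Ccl1 UMIs and 10 cells 50% of those of Ccl4.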

How the results depend on the processing

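Of the 38 calls for the 5 genes, DESeq2's size factors, no filter on low counts and the stricter hashtag call kept 38 of 38. Leaving out the cluster of few UMIs kept 37 of 37 tested, thinning 27 of 27 tested and leaving out the highest cells 26 of 26 tested. Without the highest cells no Ccl1 or Ccl3 call could be tested, so that setting cannot show whether those calls rest on single cells. Thinning could not test the Ccl3 calls or the Ccl4 call of SAT against spleen in the Foxp3 class. The DESeq2 test kept 28 of 37, leaving out cells with other markers 29 of 30, 2 UMIs for a class 8 of 9 and sums per library 9 of 9. No call of Ccl5 was lost under any of these. The number of the 5 genes called moved by more than 1.5 times as follows, and left-out samples moved the comparisons given here without a range by at most 1 gene. Smaller moves by DESeq2 were from 4 to 3 in BAT against SAT and from 4 to 5 in SAT against the spleen over all T cells, from 3 to 4 in Cxcr6 against zero and from 3 to 2 in the Klrb1c class. Cxcr6 class, BAT against SAT (0): 4 with no filter, 1 when thinned and 1 without the highest cells. Cxcr6 class, SAT against VAT (2): 1 by DESeq2, thinned, without the highest cells and without the cluster of few UMIs, and 1 to 2 with a sample left out. Foxp3 class, SAT against VAT (0): 4 with no filter, 1 with the replicate block, thinned and without the highest cells, and 0 to 1 with a sample left out. Foxp3 class against the spleen: SAT (2) gave 1 by DESeq2 and thinned and 4 with no filter, and VAT (1) gave 4 with no filter and 2 with the replicate block and with strict hashtags. Klrb1c class, SAT against VAT (3): 1 with the replicate block, which lost Ccl3 and Xcl1, and 2 to 3 with a sample left out. All T cells: BAT against VAT (2) gave 1 by DESeq2, 4 with no filter and 1 to 2 with a sample left out. BAT against spleen (4) gave 2 without cells with other markers and without the highest cells, and 2 to 4 with a sample left out (2 without BAT sample 3). SAT against VAT (2) gave 1 by DESeq2 and without cells with other markers, 5 with no filter and 2 to 3 with a sample left out, and VAT against spleen (5) gave 3 without the highest cells. Classes: Cxcr6 against zero (3) gave 5 with no filter. Foxp3 against zero (1) gave 2 with 2 UMIs and with strict hashtags, 4 with no filter, 5 with sums per library and 1 to 2 with a sample left out. Klrb1c against Cxcr6 (3) gave 0 by DESeq2, with 2 at an unadjusted p under 0.05, 5 with no filter and with sums per library, and 2 to 3 with a sample left out. With no filter more genes are tested, and after thinning or without the highest cells fewer counts are left. In the other cases the cause was not tested.

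Signs turned for 3 uncalled differences near 0 between SAT and VAT. In the Cxcr6 class Ccl4 (0.27) was at -0.046 with strict hashtags, -0.17 without the highest cells and -0.20 to 0.89 with a sample left out, and Ccl5 (0.01) was at -0.074 when thinned and -0.15 to 0.11 with a sample left out. In the Klrb1c class Ccl5 (-0.01) was at 0.034 with no filter, 0.12 with strict hashtags, 0.14 when thinned, 0.053 without the highest cells and -0.51 to 0.35 with a sample left out. Without VAT sample 3 or 4 the lone VAT sample of that class was taken to vary like the others, and without cells with other markers the Klrb1c class had too few cells to be fitted. Over all genes, the number called moved by more than 1.5 times in at least 1 comparison under DESeq2 (0 to 1.24 times), no filter (0.993 to 5.29), the replicate block (0.0833 to 1.43), strict hashtags (0.364 to 0.871), thinning (0.290 to 0.857), 2 UMIs for a class (0.0802 to 1.11), sums per library (1.52 to 2.53), leaving out cells with other markers (0.595 to 0.984) and leaving out the cluster of few UMIs (0.892 to 1.57). With a sample left out it ran from 206 (without SAT sample 1) to 547 in SAT against VAT over all T cells (462 with all samples), from 109 to 238 in the Cxcr6 class (200) and from 12 to 117 in BAT against SAT of that class (37, without BAT samples 3 and 4). It ran from 0 to 19 in SAT against VAT of the Foxp3 class (7), 225 to 416 in SAT against spleen (385), 3 to 36 in the Klrb1c class (24) and 125 to 232 in Klrb1c against Cxcr6 (212).

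The numbers in the labels did not pair the samples across tissues: over 12 pairs the correlation of same-numbered samples ran from -0.36 to 0.11. The block kept 26 of the 29 calls it could test. Few cells limit the Klrb1c class, in which no VAT sample of experiment 1 reached 20 cells.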
